A study of Mus musculus with 9 samples.

Results

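Neat1 and Malat1, a pair of abundant nuclear long noncoding RNAs, were followed together with 4 genes for proteins that bind them, Sfpq, Nono, Pspc1 and Tardbp. The cells were mouse embryonic stem cells, controls or labelled as deleted for the Hippo pathway co-activators YAP and TAZ or for TAZ alone. The 6 genes were taken by name from a table of 38940 genes, and all 6 were among the 11674 genes whose mean level over the libraries was high enough to be tested. They were selected on their biology and with their FPKM levels in the same 9 libraries already known, so levels and differences are given as a description and carry no p-value. Neat1 was 3.13 times as high in Yap/Taz double KO as in control libraries on average, and Nono was at 0.801 of its control level. Neither gene overlapped between those groups, and 45.6% of all tested genes did not overlap there either. A lower log2 difference than that of Nono was found for 19.7% of tested genes. The size of the Nono difference depended on scaling, with a log2 difference of -0.32 as deposited and of -0.13 after quantile normalization, which gives all libraries the same distribution of values. In Taz KO libraries all 6 genes overlapped the controls.

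The groups were Yap/Taz double KO, Taz KO and control, with 3 poly(A)-selected libraries in each. By the sample descriptions, double KO cells were deleted for both Yap and Taz, Taz KO cells were deleted for Taz and kept floxed Yap (f/f), and control cells carried floxed alleles of both genes (fl/fl); the genotype field of the double KO samples names only the Taz deletion, so the grouping follows titles and descriptions. All cells grew on fibronectin in medium with the inhibitors PD0325901 (0.4 µM) and CHIR99021 (3 µM) and with Lif (4 ng/ml), a condition called 2i/Lif that holds embryonic stem cells in a naive state. Deletion used a Cre-ERT2 transgene brought in by piggyBac transposition and 500 nM 4-OHT; the labels do not say whether controls received 4-OHT, whether a group was 1 clone, or whether replicates were separate cultures.

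Paraspeckles are nuclear bodies built on the long form of Neat1. SFPQ, NONO and PSPC1, the DBHS family of RNA-binding proteins, coat that RNA as homo- and heterodimers, and SFPQ and NONO are needed for the bodies to form. Neat1 is made in a short form with a poly(A) tail and a long form without one, and cells with the short form alone do not assemble paraspeckles. TDP-43, the product of Tardbp, binds UG-rich RNA and in mouse embryonic stem cells favours the short form. Malat1 is transcribed from the adjacent gene, gathers in nuclear speckles, and like long Neat1 ends in an RNA triple helix in place of a poly(A) tail after RNase P has cut off a tRNA-like RNA.

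The ends of these transcripts are shown because they decide what poly(A) selection can capture. Coordinates and sequences are from the GENCODE M21 annotation and the GRCm38 genome, on the minus strand, 5′ to 3′. Capitals mark the genome-encoded A-rich tract in the first pair, the polyadenylation signal AATAAA in the third, and the longest run of alternating T and G in the fourth.
Neat1 long transcript, last 100 bases (chr19:5824708-5824807): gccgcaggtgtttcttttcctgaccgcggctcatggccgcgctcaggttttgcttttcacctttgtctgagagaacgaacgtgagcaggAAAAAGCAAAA
Malat1, 140 bases with the A-rich tract and what follows it (chr19:5795920-5796059): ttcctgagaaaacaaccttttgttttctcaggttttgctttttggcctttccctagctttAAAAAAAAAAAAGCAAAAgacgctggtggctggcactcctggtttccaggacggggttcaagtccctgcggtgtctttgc
Neat1 short transcript, last 60 bases (chr19:5842307-5842366): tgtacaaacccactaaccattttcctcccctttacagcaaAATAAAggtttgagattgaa
Neat1 long transcript, longest TG repeat (chr19:5826007-5826071): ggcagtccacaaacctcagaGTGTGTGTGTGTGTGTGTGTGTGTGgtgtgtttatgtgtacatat

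The A-rich tract closes the annotated long Neat1 transcript, and in Malat1 it is followed by the tRNA-like RNA. Both ends share the 16-base stretch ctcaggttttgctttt upstream of the tract, which holds the U-rich strand that pairs with the tract in the triple helix. The annotated long Neat1 transcript is 20771 bases, the short one 3004 bases, and the AATAAA of the short form lies at base 3153 of the long one, at base 2985 of the short one, which is annotated as spliced. TG runs of at least 12 bases, searched on the transcribed strand only, occur 3 times in the long form, from bases 6833, 19428 and 19778, and 0 times in the short form or in Malat1. Such a run was present in 26.7% of the 146 annotated transcripts of at least 15 kb and in 3.39% of all 141767 transcripts, so its presence describes a long RNA and says nothing of binding here.

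Levels are FPKM, fragments per kilobase scaled by depth, as deposited, and a group's value is the mean ± SD over its 3 libraries (n = 3). The libraries held 19.1 to 24.0 M reads recovered from the FPKM values. Yap1 was at 4.25 ± 0.334 FPKM in double KO, 18.3 ± 0.346 in Taz KO and 18.4 ± 0.574 in control libraries. Wwtr1, the gene for TAZ, was at 13.9 ± 0.772, 10.9 ± 1.58 and 12.1 ± 0.847 FPKM in the same order of groups, and its gene total does not check the deletion of a part of it. The 6 embryonic stem cell markers looked for (Pou5f1, Nanog, Sox2, Esrrb, Zfp42, Klf4) were all present, at 61.1 FPKM or more in every library, and summed to 1115 to 1212 FPKM in double KO, 1271 to 1379 in Taz KO and 1337 to 1355 in control libraries. Of 5 fibroblast markers, 4 stayed under 1 FPKM in every library, 1 of them at 0 throughout, and the 5 summed to 2.75 to 9.75 FPKM in double KO, 1.49 to 4.85 in Taz KO and 1.89 to 3.48 in control libraries. Of 9 markers of differentiating cells, 6 stayed under 1 FPKM, and the 9 summed to 5.41 to 15.5 FPKM in double KO, 5.09 to 9.12 in Taz KO and 7.38 to 8.37 in control libraries. The part of these markers in the results was not tested, and in bulk RNA fewer cells of a type and less RNA per cell cannot be told apart.

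Neat1 (ENSMUSG00000092274; chromosome 19, 5824708 to 5845478, minus strand, GRCm38) was the member that differed most. It stood at 15.8, 27.0 and 19.2 FPKM in double KO replicates 1, 2 and 3, at 3.65, 9.66 and 5.19 FPKM in Taz KO, and at 6.16, 7.17 and 6.47 FPKM in control libraries. Every double KO library was above every library of the other groups, whereas Taz KO values lay on both sides of the controls.

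The mean Neat1 level was 20.7 ± 5.76 FPKM in double KO, 6.16 ± 3.12 in Taz KO and 6.60 ± 0.516 in control libraries, a ratio of means of 3.13 between double KO and control and of 3.35 between double KO and Taz KO. On the log2(FPKM + 0.5) scale, which slightly understates changes of low genes, the difference was 1.54 (SE 0.30) for double KO against control, -0.19 (SE 0.30) for Taz KO against control and 1.73 (SE 0.30) for double KO against Taz KO. These comparisons share libraries and are not independent. The order of the means was double KO, control, Taz KO, and the last pair differed by less than the spread between replicates.

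The Neat1 values rest on 1654 to 13434 reads per library, so counting error is small beside the spread between libraries. They made up 0.0331%, 0.0609% and 0.0404% of all recovered reads in double KO, 0.00733%, 0.0209% and 0.0103% in Taz KO, and 0.0127%, 0.0153% and 0.0131% in control libraries, so the separation did not depend on how the authors scaled the columns. The FPKM values imply a gene length of 20790 bases, close to the 20771 bases of the annotated exons, so reads of the short and the long form were counted together over the full length. Which form was higher cannot be told apart from this table. Reads of the short form (3004 bases) were also divided by the full length. How the Neat1 level compares with that of Malat1 or Nono therefore depends on the mix of forms.

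Malat1 (ENSMUSG00000092341; chromosome 19, 5795690 to 5802672, minus strand) was much higher in FPKM than Neat1 and less separated by genotype. It was at 118, 159 and 169 FPKM in double KO, at 60.5, 147 and 79.5 FPKM in Taz KO, and at 106, 135 and 99.3 FPKM in control libraries. The groups overlapped in every comparison, and the Taz KO libraries spread the most, with replicate 2 well above replicates 1 and 3.

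Group means of Malat1 were 149 ± 27.3, 95.8 ± 45.7 and 113 ± 18.9 FPKM in double KO, Taz KO and control libraries. The log2 difference was 0.38 (SE 0.30) for double KO against control, -0.33 (SE 0.30) for Taz KO against control and 0.72 (SE 0.30) for double KO against Taz KO. Double KO against control gave 0.28 to 0.54 with 1 library left out and 0.59 after quantile normalization. Taz KO against control was -0.69 without Taz KO 2 and -0.05 without Taz KO 1, and double KO against Taz KO was 1.08 without Taz KO 2 and 0.44 without Taz KO 1. Libraries with the same replicate number gave double KO to control ratios of 1.11, 1.18 and 1.70, all above 1, against 2.56, 3.77 and 2.97 for Neat1.

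**Figure D1:**
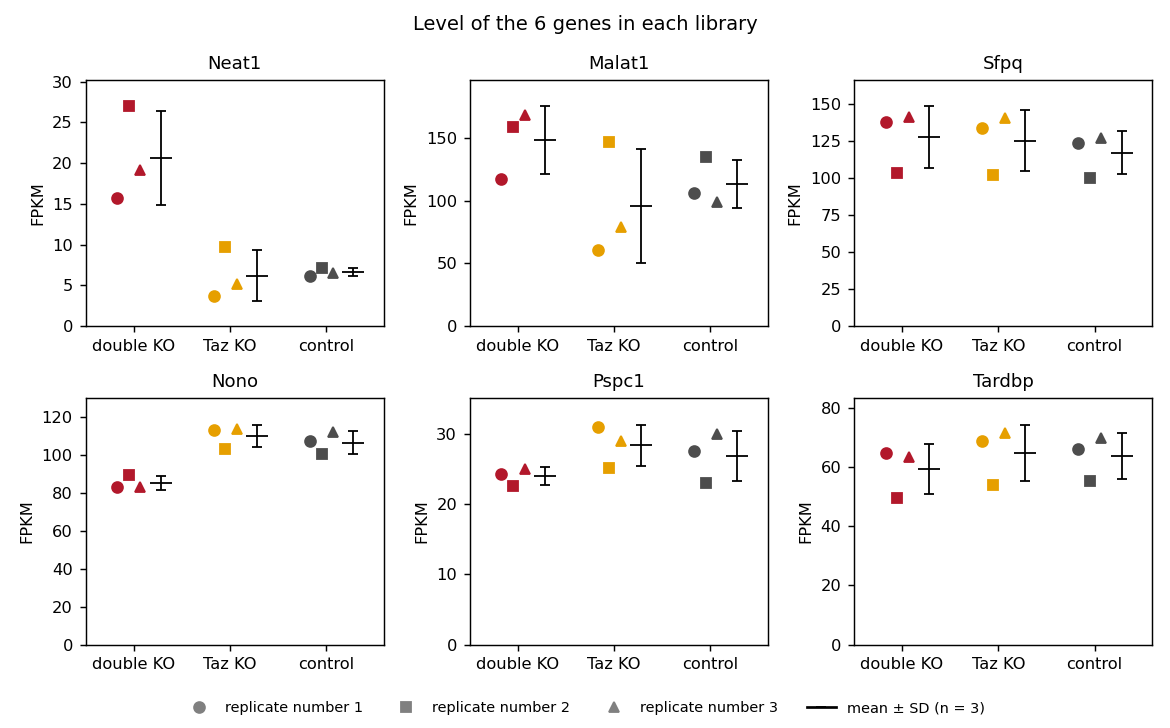
Level of the 6 genes in FPKM (vertical axes, from 0) in each library of double KO, Taz KO and control cells; symbols give the replicate number and the black bars the mean ± SD of 3 libraries. Neat1 is at 15.8 FPKM or more in double KO and at 9.66 or less elsewhere, Nono is at 89.3 or less in double KO and at 100 or more elsewhere, and the other genes overlap except Pspc1 between double KO and Taz KO.

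Setting Neat1 against Malat1 within a library removes any factor that acts on both RNAs alike, such as library size. There were 13.4, 16.9 and 11.4 FPKM of Neat1 per 100 FPKM of Malat1 in double KO, 6.03, 6.55 and 6.52 in Taz KO, and 5.81, 5.31 and 6.51 in control libraries. Taz KO replicate 2, which was the highest of its group for both RNAs, did not stand out in the ratio. The means were 13.9 ± 2.82, 6.37 ± 0.296 and 5.88 ± 0.603, so the double KO libraries lay apart and the other groups overlapped. Within groups the pair also moved together: the deviations of the 9 libraries from their group means on the log2 scale correlated at r = 0.91, a description over libraries that share replicate numbers.

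RNAs without a poly(A) tail were examined because the long form of Neat1 and Malat1 have none. Rn7sk, a small nuclear RNA that holds back the elongation factor P-TEFb, was at 5.40, 3.78 and 3.23 FPKM in double KO, 1.66, 2.50 and 4.27 in Taz KO and 2.66, 3.41 and 2.02 in control libraries, with overlap (double KO against control, log2 difference 0.53, limma adjusted p = 0.215). The summed level of histone genes named Hist, most of whose mRNAs end in a stem-loop, was 19.4 to 30.8 FPKM in double KO, 25.3 to 50.8 in Taz KO and 23.4 to 58.9 in control libraries. Hist1h2ap alone was at 7.12 ± 7.45 FPKM in double KO, 12.25 ± 12.1 in Taz KO and 15.55 ± 20.2 in control libraries. That gene carried much of the sum and of its spread, so the sum is not a general measure of RNAs without a tail. Of 75 listed RNAs of this kind only 8 passed the filter on low values, of which Rpph1 rose and Hist1h3c fell in double KO against control (log2 differences 1.10 and -0.81, adjusted p = 0.0093 and 0.014; Hist1h3c adjusted p = 0.0646 without control 1). Those 2 calls are 25.0% of the 8, against 25.3% of all tested genes. The part of poly(A) selection in the Neat1 and Malat1 levels was not tested. Mitochondrial reads made up 4.64 to 4.86% in double KO, 3.91 to 4.25% in Taz KO and 3.57 to 4.45% in control libraries, and their part was not tested either.

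Around the locus, no gene of the table lies in the 22 kb between Malat1 and Neat1. Frmd8, 4.2 kb beyond Neat1, was at 12.7 ± 0.201 FPKM in double KO, 11.4 ± 0.975 in Taz KO and 12.5 ± 0.248 in control libraries, and did not pass the test in double KO against control (log2 difference 0.03, limma adjusted p = 0.804). Since separate cultures are not stated for the replicates, the p-values measure no more than the spread among the sequenced libraries and that spread may be technical.

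Of 44 tested genes starting within 500 kb of the Neat1 start, 4 rose and 6 fell in double KO against control at a limma adjusted p under 0.05, or 22.7%, against the same 25.3% of all tested genes (12.4% rose and 12.9% fell). With the replicate number as a block in the fit, 9 rose and 15 fell, against 52.4% of all tested genes. Capn1, a calcium-dependent protease, rose to 64.6 ± 6.05 FPKM in double KO, against 39.3 ± 1.71 in control libraries (log2 difference 0.70, adjusted p = 0.000819). Ehd1, which acts in endocytic recycling, fell to 23.6 ± 2.93 FPKM, against 39.0 ± 0.965 in control libraries (-0.72, adjusted p = 0.00804). Banf1, a DNA-binding protein of the nuclear envelope, fell as well (-0.69, adjusted p = 0.0197, but 0.071 without control 1 and 0.069 without control 3). With 1 library left out, 6 to 14 of the 44 were called: 6 without control 1, control 3 or double KO 3, and 14 without Taz KO 2. The shares of all tested genes in those fits are not given.

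**Figure D2:**
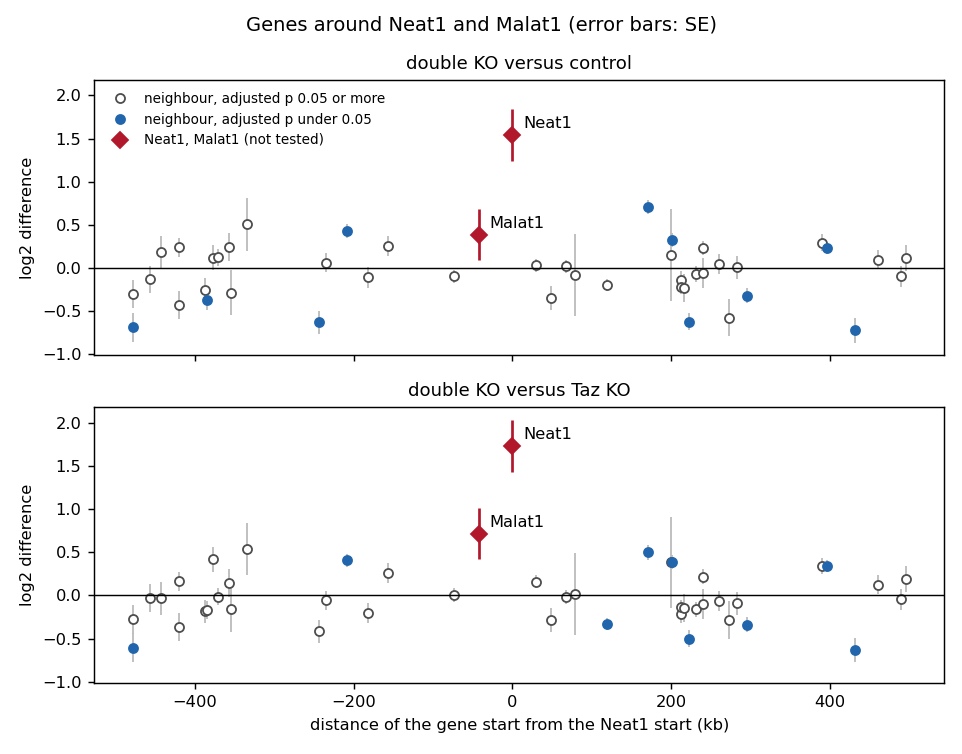
Log2 difference with its SE (vertical axes) of the tested genes within 500 kb of the Neat1 start, against distance in kb, for double KO against control (top) and double KO against Taz KO (bottom). Neat1 (1.54 and 1.73) and Malat1 (0.38 and 0.72) are red and untested; filled neighbours passed the test, and Frmd8, next to Neat1, lies at 0.03 in the top panel.

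Among the DBHS genes, Nono (ENSMUSG00000031311; chromosome X, 101429318 to 101448591, plus strand) was the one that separated double KO from both other groups. It was at 83.0, 89.3 and 83.1 FPKM in double KO, at 113, 103 and 114 FPKM in Taz KO and at 107, 100 and 112 FPKM in control libraries. All double KO values lay below all others, while Taz KO and control overlapped. The means were 85.2 ± 3.61, 110 ± 5.94 and 106 ± 5.85 FPKM, with log2 differences of -0.32 (SE 0.08) for double KO against control, 0.05 (SE 0.08) for Taz KO against control and -0.36 (SE 0.08) for double KO against Taz KO. After quantile normalization the differences of double KO were -0.13 against control and -0.20 against Taz KO. The same-number ratio of double KO to control was 0.774, 0.893 and 0.744, nearest to 1 in replicate 2.

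Sfpq (ENSMUSG00000028820; chromosome 4, 127021324 to 127037013, plus strand), the most abundant of the family per kilobase by group mean, was at 138, 103 and 141 FPKM in double KO, 134, 102 and 140 in Taz KO, and 124, 100 and 127 in control libraries. The groups overlapped, replicate 2 was lowest in each, and the means of 128 ± 20.9, 125 ± 20.6 and 117 ± 14.5 FPKM differed by less than the spread between replicates. The log2 difference was 0.12 (SE 0.17) for double KO against control and 0.09 (SE 0.17) for Taz KO against control. The value for double KO was 0.01 without control 2, 0.04 without double KO 3, 0.06 without double KO 1, 0.18 without control 3, 0.26 without double KO 2 and 0.33 after quantile normalization. That for Taz KO was -0.01 without control 2 and 0.24 without Taz KO 2.

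Pspc1 (ENSMUSG00000021938; chromosome 14, 56720710 to 56778316, minus strand), the least abundant of the family, was at 24.3, 22.6 and 25.0 FPKM in double KO, 31.0, 25.2 and 29.0 in Taz KO, and 27.5, 23.0 and 30.04 in control libraries. Double KO values lay below all Taz KO values, and they overlapped the controls through control 2. The same-number ratios of double KO to control were 0.885, 0.979 and 0.833, all below 1, and those of Taz KO to control were 1.13, 1.09 and 0.964. The means were 24.0 ± 1.27, 28.4 ± 2.96 and 26.9 ± 3.55 FPKM, with log2 differences of -0.15 (SE 0.11) for double KO against control and -0.24 (SE 0.11) for double KO against Taz KO. Double KO against control was -0.26 without control 2, -0.07 without control 3 and -0.08 after quantile normalization; against Taz KO it was -0.32 to -0.17 with 1 library left out and -0.14 after quantile normalization. On chromosome 14 the median log2 difference of 386 tested genes was 0.11 for double KO against control and 0.10 for Taz KO against control, against -0.02 and 0.01 over all tested genes; the part of the chromosome in the Pspc1 level was not tested.

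Because DBHS proteins work as dimers, the balance of their RNAs was examined within each library. The FPKM of Sfpq, Nono and Pspc1 summed to 237 ± 18.6 in double KO, 264 ± 29.1 in Taz KO and 250 ± 23.7 in control libraries. Nono made up 33.9%, 41.5% and 33.3% of that sum in double KO, 40.7%, 44.8% and 40.1% in Taz KO, and 41.5%, 44.8% and 41.6% in control libraries. Double KO 1 and 3 were below all other libraries, while double KO 2 was at the level of control 1. Sfpq took 53.6 ± 4.85%, 47.3 ± 2.75% and 46.7 ± 1.58%, and Pspc1 10.1 ± 0.29%, 10.8 ± 0.479% and 10.7 ± 0.442%. For Nono and Pspc1 the length implied by the FPKM values (2190 and 4007 bases) is shorter than the exons of GENCODE M21 (4375 and 5734 bases). Recovered reads are divided by any divisor that all libraries share, which shortens the implied length and leaves the FPKM values unchanged. The exon length of Nono is close to a whole multiple of its implied length, and that of Pspc1 is not. Whether a shared divisor applies to Nono was not tested. Shares between genes depend on the length the authors used. Neat1 stood at 24.1 ± 5.69 FPKM per 100 FPKM of Nono in double KO, against 5.73 ± 3.24 in Taz KO and 6.23 ± 0.805 in control libraries.

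**Figure D3:**
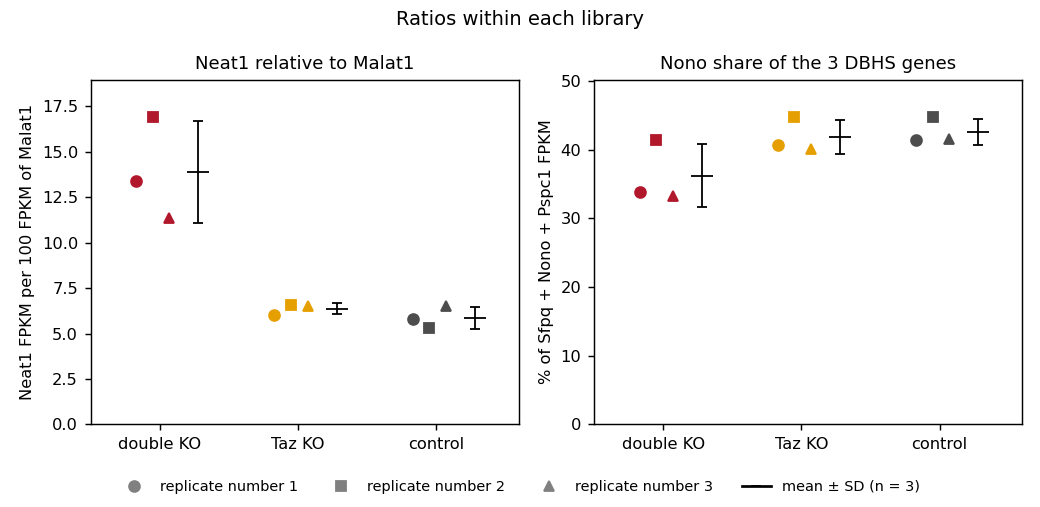
Left, FPKM of Neat1 per 100 FPKM of Malat1 in each library; right, Nono as a percent of the summed FPKM of Sfpq, Nono and Pspc1; groups and symbols as in the plot of levels, bars mean ± SD of 3 libraries. The Neat1 ratio is at 11.4 or more in double KO and at 6.55 or less elsewhere, and the Nono share is lowest in double KO 1 and 3.

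Tardbp (ENSMUSG00000041459; chromosome 4, 148612382 to 148627019, minus strand) was at 65.0, 49.7 and 63.6 FPKM in double KO, 69.1, 54.1 and 71.8 in Taz KO, and 66.3, 55.3 and 70.0 in control libraries. The groups overlapped, with replicate 2 lowest in each. The same-number ratios of double KO to control were 0.98, 0.898 and 0.908, all below 1, and those of Taz KO to control were 1.04, 0.979 and 1.03. The means were 59.4 ± 8.47, 65.0 ± 9.49 and 63.9 ± 7.66 FPKM, and the log2 difference of double KO against control was -0.11 (SE 0.15), which turned to 0.05 after quantile normalization and to 0.02 without double KO 2.

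**Figure D4:**
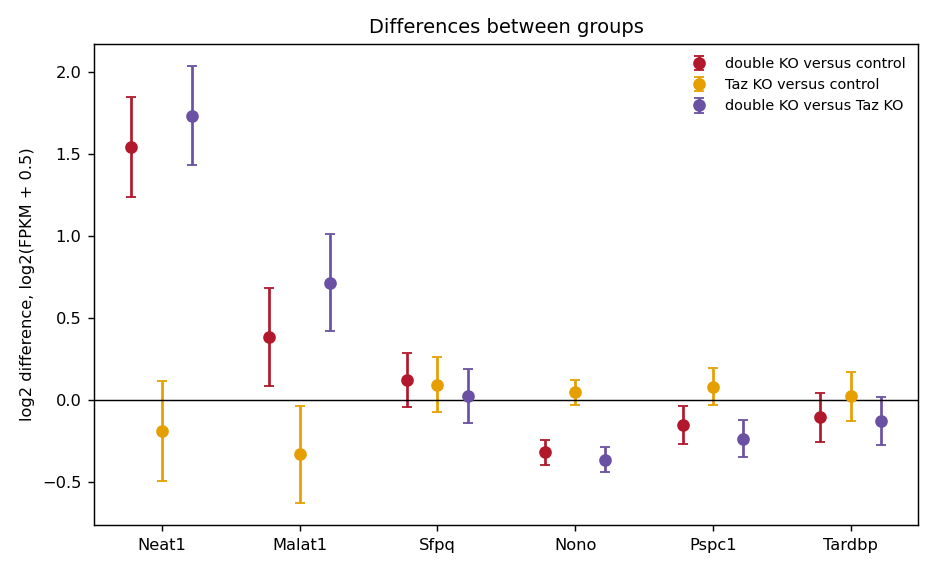
Log2 difference (vertical axis, log2(FPKM + 0.5)) of the 6 genes for double KO against control, Taz KO against control and double KO against Taz KO; points are fitted differences and bars their SE. Neat1 lies at 1.54 and 1.73 in the comparisons that involve double KO, Nono at -0.32 and -0.36, and the Taz KO comparison stays between -0.33 and 0.09 for all 6 genes.

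Counted by overlap, 2 of the 6 genes (Neat1 above, Nono below) did not overlap between double KO and control, where 45.6% of all tested genes did not; 0 of 6 did so between Taz KO and control, against 18.7%; and 3 of 6 (Neat1 above, Nono and Pspc1 below) between double KO and Taz KO, against 30.6%. Since the genes were chosen with these values known, the counts are not evidence about the group.

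Replicate 2 of each group stood apart for several of the genes. Its log2 level was below the mean of replicates 1 and 3 by 0.30 to 0.43 for Sfpq and Tardbp in all groups, and Pspc1 was lowest in replicate 2 of all groups too. Neat1 was highest in replicate 2 of all groups, by 0.62 in double KO, 1.07 in Taz KO and 0.17 in control libraries. Over all tested genes, replicate 2 was lowest in all 3 groups for 31.9% and highest for 19.6%. With replicates 1 and 3 alone, an alternative chosen after seeing the data, the log2 difference of Nono in double KO against control was -0.40.

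Beyond the 6 genes, 26 further genes for proteins reported in or needed for paraspeckles were tested. Against control, 1 rose and 3 fell in double KO (15.4% against 25.3% of all tested genes; 2 and 7 with the replicate block, against 52.4%), with a median log2 difference of -0.04, against -0.02 over all tested genes. Dazap1, an RNA-binding protein found in paraspeckles, fell to 43.3, 41.9 and 43.5 FPKM in double KO, against 53.4, 51.5 and 54.7 FPKM in control libraries (log2 difference -0.31, limma adjusted p = 0.00883, but 0.0601 under quantile normalization), and was at 58.1, 55.6 and 57.9 FPKM in Taz KO. Double KO values lay below those of both other groups. Hnrnph3, a paraspeckle protein of the hnRNP H family, fell to 13.2 ± 1.76 FPKM, against 19.4 ± 0.981 in control libraries (-0.54, adjusted p = 0.0141, 0.0574 without control 1).

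Taf15, an RNA-binding protein also found in the TFIID complex, fell (-0.28, adjusted p = 0.0243), and Rbm4b rose (0.30, adjusted p = 0.0457). Both calls were thin: Taf15 had an adjusted p of up to 0.0877 and Rbm4b of up to 0.139 with 1 library left out, lost for Taf15 without control 1, control 3, double KO 1 or double KO 3, and for Rbm4b without any control, double KO 1, double KO 3, Taz KO 1 or Taz KO 3. Under quantile normalization Taf15 was at an adjusted p of 0.315 and Rbm4b at 0.0738. Hnrnpk, which favours the long form of Neat1, was at 161 ± 8.18 FPKM in double KO, 182 ± 11.96 in Taz KO and 171 ± 12.1 in control libraries (double KO against control -0.08, adjusted p = 0.504). Rbm14, which is needed to build the bodies, did not pass the test either (0.16, adjusted p = 0.305), but rose in the fit with the replicate block (adjusted p = 0.0342). With 1 library left out, 1 to 4 of the 26 genes were called, 1 of them without control 1 and 2 without control 3, double KO 1 or double KO 3. No share of all tested genes is given for those fits, so these counts are not results about the list.

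The cleavage and polyadenylation machinery makes the short form of Neat1. Of 21 tested factors, 0 rose and 2 fell in double KO against control (9.52% against 25.3% of all tested genes; 1 and 8 with the replicate block, against 52.4%), with a median log2 difference of -0.10. Cpsf3, the endonuclease that cuts pre-mRNA, fell to 42.7, 43.0 and 40.4 FPKM in double KO, against 56.6, 54.4 and 58.3 FPKM in control libraries (log2 difference -0.42, adjusted p = 0.00436). The values did not overlap, and Taz KO libraries lay with the controls at 56.9, 51.5 and 58.1 FPKM. Ssu72, a phosphatase of the RNA polymerase II tail, fell to 20.8, 18.3 and 19.5 FPKM, against 29.8, 26.3 and 28.8 FPKM in control libraries (-0.52, adjusted p = 0.00822). Nudt21 and Cpsf6, the subunits of CFIm that direct use of the short-form signal shown above, were at -0.07 (adjusted p = 0.766) and -0.02 (adjusted p = 0.894).

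RNase P cuts, and RNase Z trims, the tRNA-like RNA at the ends of Malat1 and long Neat1, and METTL16 binds the MALAT1 triple helix in human cells. Of 13 tested genes for these proteins, 0 rose and 1 fell in double KO against control (7.69% against 25.3% of all tested genes, 12.9% falling), with a median log2 difference of -0.27, against -0.02 over all tested genes. With the replicate block 0 rose and 8 fell, against 28.1% of all tested genes that fell. Without Taz KO 2, 6 were called, in a fit for which the share of all tested genes is not given. Rpp21, an RNase P protein subunit, fell to 9.03, 9.50 and 7.99 FPKM in double KO, against 12.3, 11.4 and 12.5 FPKM in control libraries (-0.43, adjusted p = 0.00589), with Taz KO between them at 11.1, 10.4 and 10.9. Elac2, which encodes RNase Z, was at 15.1 ± 1.35 FPKM in double KO, 18.4 ± 2.36 in Taz KO and 18.0 ± 1.96 in control libraries (-0.25, adjusted p = 0.154, and 0.00622 with the replicate block).

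Rpph1, the catalytic RNA of RNase P, rose where the protein subunit Rpp21 fell. It was at 14.8, 10.3 and 11.5 FPKM in double KO, against 6.44, 4.24 and 5.65 FPKM in control libraries (log2 difference 1.10, adjusted p = 0.0093). Taz KO libraries were at 12.2, 6.68 and 9.89 FPKM, all above the controls, though the difference did not pass the test (0.74, adjusted p = 0.177); with the replicate block it did (adjusted p = 0.00244). Rpph1 has no poly(A) tail, so its level in poly(A)-selected libraries counts the molecules that were carried through.

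Of 24 tested genes of nuclear speckles, where Malat1 resides, 2 rose and 1 fell in double KO against control (12.5% against 25.3% of all tested genes; 3 and 8 with the replicate block, against 52.4%), with a median log2 difference of -0.09. Tra2a, a splicing activator, rose to 169, 183 and 172 FPKM in double KO, against 129, 116 and 131 FPKM in control libraries (0.48, adjusted p = 0.00372), with Taz KO in between at 143, 154 and 158 FPKM. Clk4, a kinase of SR proteins named after its values were seen, rose too (0.41, adjusted p = 0.00701). Srrm1, an SR-related splicing coactivator, fell (-0.23, adjusted p = 0.0385), but in 8 of the 9 fits with 1 library left out, all but that without Taz KO 2, it did not pass, with an adjusted p of up to 0.103, and quantile normalization gave 0.486.

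Of 27 tested hnRNP and related genes, 0 rose and 2 fell (7.41% against 25.3% of all tested genes; 2 and 11 with the replicate block, against 52.4%), with a median of -0.10; the 2 were Hnrnph3 and Hnrnpul2 (-0.36, adjusted p = 0.0152, but 0.0577 without control 1 and 0.0528 without control 3). Of 5 tested genes for DBHS partners or for editing and nuclear retention of RNA, 1 fell (against 25.3% called of all tested genes; 0 rose and 3 fell with the replicate block, against 52.4%). It was Carm1, the arginine methyltransferase that modifies NONO, at 28.6, 23.2 and 26.6 FPKM in double KO, against 33.7, 34.7 and 34.4 FPKM in control libraries (-0.39, adjusted p = 0.0164, 0.0548 without control 1), with 37.6, 33.1 and 37.7 FPKM in Taz KO. Without Taz KO 2, 2 of the 5 were called, in a fit for which the share of all tested genes is not given.

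Counted once each, the genes of these 6 protein lists numbered 103 tested, of which 3 rose and 9 fell in double KO against control, or 11.7%, below the 25.3% of all tested genes. Their median log2 difference was -0.11, against -0.02. With the replicate block 8 rose and 41 fell, against 24.2% and 28.1% of all tested genes that rose and fell. The count of 12 was 6 without control 1, 8 without control 3 and 19 without Taz KO 2, and between 9 and 12 without any other single library. Shares of all tested genes are not given for those fits, so the change in count is not a result about the listed genes.

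**Figure D5:**
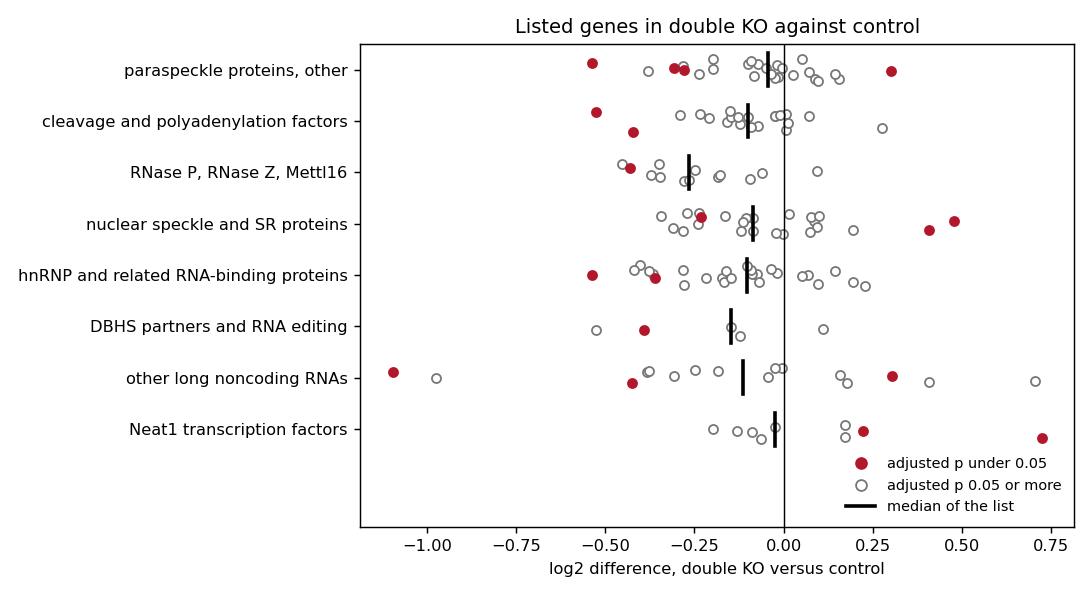
Log2 difference for double KO against control (horizontal axis) of each tested gene of the 6 protein lists, of other long noncoding RNAs and of transcription factors reported to act on Neat1; vertical scatter within a row has no meaning. Filled points passed the limma test, the black bar is the list's median, and the list of RNase P, RNase Z and Mettl16 has the lowest median (-0.27) of the 8 lists drawn.

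In Taz KO against control, 0 of the 103 genes passed the limma test, against 1.28% of all tested genes, and voom called 0. At an unadjusted p under 0.05, 3 were higher and 0 lower. The share of all tested genes at that threshold is not given, so no direction is read from these 3. The replicate block gave 4 that rose and 1 that fell, against 11.8% of all tested genes. In double KO against Taz KO, 0 rose and 6 fell, or 5.83% against 13.9% of all tested genes, with a median of -0.15 against -0.04. With the replicate block 6 rose and 50 fell, against 42.4% of all tested genes called in either direction. The share called was thus below that of all tested genes in the main fit and above it with the block. Separate shares of rises and falls are not given for this comparison. The 6 that fell in the main fit were Dazap1 (-0.41, adjusted p = 0.00552), Cpsf3 (-0.40, 0.0115), Carm1 (-0.46, 0.0149), Srrm1 (-0.30, 0.0257), Taf15 (-0.29, 0.0327) and Hnrnpul2 (-0.30, 0.0456). Dazap1 kept its call with any 1 library left out, and quantile normalization gave 0.28 for Taf15, 0.216 for Srrm1 and 0.0793 for Hnrnpul2. Without Taz KO 1 the count was 1, without Taz KO 3 or double KO 3 it was 2, without control 1 or double KO 1 it was 3, and without Taz KO 2 it was 22. The shares of all tested genes in these fits are not given either.

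Other long noncoding RNAs were set beside Neat1 and Malat1. Of 16 tested, 1 rose and 2 fell in double KO against control (18.8% against 25.3% of all tested genes; 3 and 6 with the replicate block, against 52.4%), with a median log2 difference of -0.11. Tug1, a nuclear and cytoplasmic RNA, rose to 25.5, 24.8 and 26.0 FPKM in double KO, against 19.8, 20.8 and 20.8 FPKM in control libraries (0.31, adjusted p = 0.022); the adjusted p was above 0.05 without any control, double KO 1 or double KO 3, at most 0.0896. Dancr, a host of small nucleolar RNAs, fell to 4.53, 2.94 and 4.11 FPKM, against 8.96, 8 and 9.18 FPKM in control libraries (-1.10, adjusted p = 0.00154). Taz KO lay between them at 5.99, 5.04 and 6.47 FPKM (-0.54 against control, adjusted p = 0.132, and 0.00673 with the replicate block). Snhg12, another such host, fell to 27.7 ± 2.11 FPKM, against 37.3 ± 1.25 in control libraries (-0.42, adjusted p = 0.00793, 0.0688 under quantile normalization).

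H19, an imprinted RNA, was at 1.76, 4.10 and 2.86 FPKM in double KO, 0.927, 1.65 and 0.757 in Taz KO, and 2.39, 3.86 and 2.54 in control libraries. It was higher in double KO than in Taz KO (1.06, limma adjusted p = 0.0474), a call that was lost in 7 of 9 fits with 1 library left out, all but those without Taz KO 2 or double KO 1 (adjusted p up to 0.155). Against control, double KO was at -0.04 (adjusted p = 0.929). Taz KO lay below all controls at -1.10 (adjusted p = 0.128, and 0.00368 with the replicate block). Meg3 of the Dlk1-Dio3 imprinted cluster was below the filter and was listed at 0 in every double KO and Taz KO library, with 2.28 ± 0.845 FPKM in control libraries; its neighbour Rian was at 0.00933 ± 0.00451, 0.00767 ± 0.00135 and 2.35 ± 0.68 FPKM in double KO, Taz KO and control libraries. Both were named after their values were seen.

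Of 9 tested transcription factors reported to act on the Neat1 gene, 2 rose and 0 fell in double KO against control (22.2%, close to the 25.3% of all tested genes; 4 and 1 with the replicate block, against 52.4%), with a median log2 difference of -0.02. Epas1, which encodes HIF-2α and drives NEAT1 in hypoxic human cancer cells, rose to 39.8, 30.8 and 38.0 FPKM in double KO, against 22.1, 22.4 and 20.4 FPKM in control libraries (0.72, adjusted p = 0.00163). Taz KO libraries were at 21.2, 22.2 and 20.8 FPKM, and Epas1 rose in double KO against Taz KO as well (0.74, adjusted p = 0.00377). Neat1 was highest in replicate 2 of all groups, whereas Epas1 was lowest there in double KO and highest there in Taz KO and control libraries. The part of Epas1 in the Neat1 level was not tested.

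Nfe2l2, the oxidative stress factor NRF2, named after its values were seen, rose (0.22, adjusted p = 0.0472), but passed in only 1 of 9 fits with 1 library left out, that without Taz KO 2, and reached 0.172 without control 1; under quantile normalization it was 0.0509. Trp53, a known activator of Neat1, was at 71.9 ± 13.1 FPKM in double KO, 71.4 ± 12.8 in Taz KO and 72.5 ± 6.58 in control libraries (-0.02, adjusted p = 0.934). Atf2 was at 11.6 ± 0.443, 11.2 ± 0.333 and 10.2 ± 0.542 FPKM in the same order (0.17, adjusted p = 0.0952, and 0.0434 with the replicate block).

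The genes whose log2 level followed each member most closely over the 9 libraries were taken as the 3 with the highest Pearson r, as a description with no p. For Neat1 they were Efnb2 (r = 0.992), Zfyve1 (0.988) and Pigc (0.988). Efnb2 was at 3.18 FPKM in double KO, 1.39 in Taz KO and 1.57 in control libraries on average. For Malat1 they were Scube3 (0.988), Stam (0.96) and Pcmtd1 (0.949). For Nono they were Ajuba (0.985), Csrp2 (0.985) and Dync1i2 (0.982), of which Ajuba was at 15.8 FPKM in double KO, 38.6 in Taz KO and 38.1 in control libraries. For Sfpq they were Mat2a (0.993), D10Wsu102e (0.99) and Hnrnpm (0.986), for Pspc1 Exosc7 (0.976), Hnrnpl (0.973) and Rnaseh1 (0.973), and for Tardbp Orc1 (0.994), Sart3 (0.992) and Zdhhc3 (0.991). Among the members, Sfpq and Tardbp, both lowest in replicate 2, correlated at r = 0.862 over the 9 libraries (0.993 for deviations from group means). Neat1 and Nono correlated at -0.899 over the 9 libraries and at -0.333 for deviations from group means.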

How the data were processed

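RNA-seq of 9 mouse embryonic stem cell libraries, 3 per group, was analysed. The authors deposited FPKM values per gene. Mouse build mm10 and the tools DESeq2, HTSeq 0.6.1 and TopHat2 2.1.1 are listed, without roles, per the submitters' processing notes. Annotation release and strand setting of the counting were not given in the sources used here, so reads of overlapping or antisense genes may be shared. All 24621 genes above 0 gave whole reads at a tolerance of 0.001, 19.1 to 24.0 M per library. A gene above 0 in only 1 library gives a whole read by construction. Counts with a divisor shared by all libraries are returned divided by it, so recovered reads can fall short. The columns were on a common scale equal to a median-of-ratios size factor. With limma 3.58.1 in R 4.3.3, group means were fitted on log2(FPKM + 0.5) for 11674 genes averaging 1 FPKM or more over all 9 libraries (6 residual degrees of freedom), two-sided, with Benjamini-Hochberg adjustment over all tested genes and a threshold of 0.05. SEs are from this fit. 0 columns were left out.

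The members and the gene lists were chosen with earlier results of these data known. Named list genes were the largest rise and the 2 largest falls per list and comparison among those that passed, plus background genes and the nearest neighbours of the locus, of which some are not reported here; Clk4, Nfe2l2, Meg3 and Rian were added after their values were seen. Libraries with equal replicate numbers deviated together (r of deviations from group means 0.192 to 0.711 in 9 same-number pairs, -0.688 to 0.394 in 18 other pairs); the pairing comes from these values, since the labels do not say what a number marks. Alternatives were other pseudocounts (0.1 and 1), no filter, quantile normalization, rescaling each library to an equal sum, the replicate block, only the groups compared, leaving out each library, voom on recovered reads and, chosen after seeing the data, replicates 1 and 3 alone.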

Additional observations from a re-analysis of the deposited data

How the results depend on the processing

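Neat1 in double KO against control lay between 1.34 (without double KO 2) and 1.72 (without double KO 1) on the log2 scale with any library left out and between 1.39 and 1.66 under the other settings; against Taz KO it lay between 1.44 and 2.09 and between 1.65 and 1.88. Nono in double KO against control was -0.13 under quantile normalization, -0.24 after rescaling to an equal sum and -0.40 with replicates 1 and 3 alone, and -0.36 to -0.28 with a library left out; against Taz KO it was -0.20, -0.29, -0.45 (replicates 1 and 3) and -0.41 to -0.34. The cause was not tested. Neat1 in Taz KO against control changed sign with a library left out (-0.55 to 0.10), as did Tardbp in double KO against control (-0.21 to 0.02) and Sfpq in double KO against Taz KO (-0.12 to 0.17). For Tardbp and Sfpq the ends of those ranges came from fits without 1 replicate 2 library, the lowest of its group. Same-number ratios in these comparisons were 0.98, 0.898 and 0.908 for Tardbp, all below 1. For Sfpq they were 1.03, 1.016 and 1.008, all above 1. Without control 2, Taz KO against control was -0.01 for Sfpq, -0.02 for Pspc1 and -0.08 for Tardbp, and quantile normalization gave 0.04 for Tardbp in double KO against Taz KO. Quantile normalization and rescaling moved the median of all genes by less than 0.1.

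Of the 103 tested genes of the 6 protein lists, 12 were called in double KO against control, against 25.3% of all tested genes. The count was 21 under quantile normalization and 49 with the replicate block, against 52.4% of all tested genes with the block. It was 36 with replicates 1 and 3 alone and 6 to 19 with a library left out. In Taz KO against control (0) the replicate block gave 5, against 11.8% of all tested genes. Replicates 1 and 3 gave 1, and leaving out a library 0 to 0. In double KO against Taz KO (6) the replicate block gave 56, against 42.4% of all tested genes. Only the 2 groups compared gave 2, replicates 1 and 3 gave 46, and leaving out a library 1 to 22. For fits other than the main fit and the replicate block, the share of all tested genes is not given, here or above. Counts from those fits are therefore not results about the listed genes. Of 36 named calls, 15 held in all 9 fits with a library left out and 0 reversed; quantile normalization lost 9, rescaling 5, only the 2 groups 12, no filter 6, a pseudocount of 1 lost 1, voom 1, and the replicate block 0. With 3 libraries per group and 6 residual degrees of freedom, small differences could be missed by the fit without the replicate block, and FPKM per gene cannot separate transcript forms.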
